A study of Caenorhabditis elegans with 2 samples.

Results

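The genes described here encode proteins of the mitochondrial ribosome of Caenorhabditis elegans, and the data are binding sites of UNC-55 mapped by ChIP-seq in late embryos. Members were the protein-coding genes of the Ensembl WBcel235 annotation named mrpl- or mrps- followed by digits, which gave 70 of 19973 nuclear protein-coding genes, 41 of the large subunit (mrpl-) and 29 of the small subunit (mrps-). The name rule uses no binding value, but the members were chosen with earlier results of these data known. The single group held 2 biological replicates of strain NC1639, whose integrated transgene wdIs49, placed on III by the genotype, carries pttr39::UNC-55a::GFP with dpy-20+, so that the ttr-39 promoter drives the fusion protein. Both samples were whole organisms of mixed sex at the late embryonic stage, of unknown age per the labels, and both carry the transgene. The antibody is labelled unc-55 and one note gives the tag as GFP-FLAG. Chromatin of all embryonic cells was assayed together, so the cells in which a site was occupied are not known here.

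Mitochondrial ribosomes translate the few respiratory chain subunits that are encoded in mitochondrial DNA. Their own proteins are encoded in the nucleus, made on cytosolic ribosomes and imported, and many have a counterpart in the bacterial ribosome while others occur only in mitochondria. UNC-55 belongs to the COUP-TF class of nuclear receptors and is known for its role in the VD motor neurons. In C. elegans many genes lie in operons, in which several genes on one strand are transcribed from a single upstream promoter. The annotation used here holds no operons.

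The deposited lists set the terms used below. The IDR set, the authors' reproducibility-filtered list, held 2511 peaks, and the pooled list 30000 regions. Replicate 1 alone gave 3577 regions and replicate 2 alone 30000. Each region has a signal value from the authors' peak caller, which is not scaled between lists and serves here only to rank regions within a list. The lowest signal in the IDR set was 23.8 and the median 34.4. Of the 2511 IDR peaks, 770 had an overlapping region in replicate 1. Per their names, the pooled list and both replicate lists include background regions, so a region in them is not by itself a binding site. Depth is unknown because no read counts were analysed. A gene is called bound when an IDR summit lies between 1000 bp upstream and 200 bp downstream of one of its transcript starts. The call does not require an overlapping region in replicate 1. It was made for 1467 genes, and the same number had their strongest pooled summit in ranks 1 to 2511. With 1 group there is no contrast between conditions and no test was made, so shares are set beside the same share over all protein-coding genes. Their 95% Wilson intervals cover counting over genes only.

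Few mitochondrial ribosomal protein genes were bound. An IDR summit lay in the promoter window of 5 of the 70 (7.14%, 95% Wilson interval 3.09 to 15.7), and the share among all protein-coding genes was 7.34%, so the members' share was close to the background. The 5 were mrps-7, mrps-21 and mrps-17 of the small subunit and mrpl-55 and mrpl-36 of the large subunit, which makes 3 of 29 (10.3%, 3.58 to 26.4) and 2 of 41 (4.88%, 1.35 to 16.1). The intervals of the subunits overlap and their difference was not tested. In the 2511 strongest regions of replicate 1 alone, 2 of the 70 members had a summit in the window, beside 5.10% of all genes. This was the count without replicate 2. Without replicate 1 there were 7 of the 70, a larger share than the 7.37% of all genes.

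The sequences at the 5 summits are shown because they are the only IDR peaks in member promoters. Each run covers 100 bp on either side of the summit, read from the RefSeq sequence of WBcel235 (ce11) along the strand of the named gene, 5′ to 3′, with no annotated exon in it. Capitals mark any match on either strand to AGGTCA (the COUP-TF core site), GAGAGA or ACGCAG (both frequent at IDR summits of these data).
mrps-7 (chrIV:14767821-14768021, minus strand): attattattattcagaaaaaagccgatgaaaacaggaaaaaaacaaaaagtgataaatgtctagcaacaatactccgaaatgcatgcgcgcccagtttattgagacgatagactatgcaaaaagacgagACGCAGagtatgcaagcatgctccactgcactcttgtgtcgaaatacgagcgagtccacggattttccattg
mrps-21 (chrIV:4660386-4660586, minus strand): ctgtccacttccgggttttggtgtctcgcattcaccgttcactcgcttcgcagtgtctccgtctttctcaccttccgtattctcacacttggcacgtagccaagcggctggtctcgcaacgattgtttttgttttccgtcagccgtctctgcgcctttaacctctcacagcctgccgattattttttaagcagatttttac
mrpl-55 (chrIV:443742-443942, plus strand): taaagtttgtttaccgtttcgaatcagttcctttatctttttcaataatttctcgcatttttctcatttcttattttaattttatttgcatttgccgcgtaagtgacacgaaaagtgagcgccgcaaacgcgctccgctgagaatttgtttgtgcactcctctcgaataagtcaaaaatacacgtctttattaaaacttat
mrps-17 (chrIII:6431829-6432029, minus strand): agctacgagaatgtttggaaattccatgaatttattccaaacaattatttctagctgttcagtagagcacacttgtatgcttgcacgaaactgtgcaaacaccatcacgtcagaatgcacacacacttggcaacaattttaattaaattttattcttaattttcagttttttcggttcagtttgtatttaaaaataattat
mrpl-36 (chrIII:9848141-9848341, minus strand): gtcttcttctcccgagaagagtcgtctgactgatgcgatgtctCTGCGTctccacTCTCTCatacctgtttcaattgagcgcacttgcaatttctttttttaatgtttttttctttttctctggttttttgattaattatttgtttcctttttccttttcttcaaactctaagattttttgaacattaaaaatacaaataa

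AGGTCA was in 0 of the 5 windows, and in 6.33% of the 2511 windows of the whole IDR set. GAGAGA, searched on both strands as all 3 motifs were, was in 1 of the 5, that of mrpl-36, where it reads TCTCTC along the gene, against 51.6% of all IDR windows. ACGCAG was in 2 of the 5, at mrps-7 and, as CTGCGT, at mrpl-36, against 27.4%. None of these motifs overlap each other in the printed runs. The mean GC content of the 5 windows was 37.9% ± 7.69 (SD over 5 windows), from 31.3% at mrps-17 to 50.2% at mrps-21, and that of all IDR windows was 44.6% ± 6.13. In the promoters of all 70 members, taken from 250 bp before to 50 bp after the most upstream transcript start, AGGTCA was found in 5.71%, GAGAGA in 21.4% and ACGCAG in 8.57%, beside 8.27%, 21.8% and 8.23% of all protein-coding promoters. A match is a description of the letters and not a site.

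The strongest of the 5 peaks was that of mrps-7, the counterpart of the bacterial protein that organises the head of the small subunit. Its signal value was 50.9 in the IDR set (rank 481 of 2511) and 50.3 in replicate 2 (rank 424), and no region of replicate 1 overlapped it. The peak spanned chrIV:14767741-14768100 with the summit at -191 bp from the mrps-7 start. It also lay at -280 bp from the start of Y57G11C.3, the divergent neighbour, so that either gene or both could be counted for it. The peak at mrpl-55, a mitoribosomal protein with no bacterial counterpart, had a signal of 29.5 (rank 1714) and of 30.6 in replicate 2 (rank 1437). Its summit was at -143 bp on chromosome IV, and no other protein-coding gene had this summit in its window.

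The peak at mrps-17, the counterpart of a bacterial small-subunit protein that binds ribosomal RNA early in assembly, had a signal of 28.4 (rank 1830) and of 25.2 in replicate 2 (rank 2084). Its summit, at -131 bp on chromosome III, was also at -249 bp from txdc-9, which lies divergently, and at -995 bp from popl-1. The weakest peak was at mrpl-36, the counterpart of a small protein of the bacterial large subunit, with a signal of 25.5 (rank 2234) and of 22.5 in replicate 2 (rank 2511). It too was on chromosome III, at -125 bp from the mrpl-36 start, with no other gene's window holding it. These 3 peaks fell below the median signal of the IDR set, and none of them was overlapped by replicate 1.

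The peak counted for mrps-21 differed from the other 4 in position and in replicate 1. Its signal was 40.1 (rank 888), with 4.10 in replicate 1 (rank 664 of 3577) and 35.6 in replicate 2 (rank 1042), the only one of the 5 with a region in both replicates. The summit, on chromosome IV at position 4660486, was at -969 bp from the mrps-21 start, near the edge of the window. It was closer to F29B9.11, at -285 bp, which ends 113 bp upstream of mrps-21 on the same strand, and to jmjd-1.2, at -505 bp, a histone demethylase known in C. elegans for its part in the mitochondrial unfolded protein response. When the window was narrowed to 500 bp before and 100 bp after a start, mrps-21 was no longer called and the other 4 were. This made 4 of the 70 members, beside 5.46% of all genes.

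Replicate 1 thus overlapped the peak of 1 of the 5 bound members, beside 29.3% of all 1467 bound genes. Replicate 2 overlapped all 5, as it did 1466 of the 1467 bound genes. The summit lay in another gene's window for 3 of the 5 members, beside 40% of all bound genes. The median signal of the 5 peaks was 29.5, beside 34 for the 1225 IDR peaks in promoter windows, and their median percentile in the IDR set was 31.8. Replicate 1 had a summit in the window of 2 of the 70 members, mrps-21 and mrps-6, beside 7.06% of all genes. At mrps-6 the region had a signal of 2.63 (rank 1924) at -834 bp, was nearest to the start of rpn-8, a proteasome subunit, and the pooled summit in that window had a signal of 7.90 (rank 11922).

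Members were common in the pooled list. A pooled summit lay in the window of 47 of the 70 (67.1%, 55.5 to 77.0), 5 of them bound and 42 not. A replicate 2 summit lay in that of 48 (68.6%, 57.0 to 78.2). Each share stood beside 43.7% of all genes. The pooled share was 91.4% in cytosolic ribosomal protein genes, 82.9% in respiratory chain and ATP synthase genes and 54.5% in mitochondrial gene expression factors. For 19 members (27.1%) the strongest pooled summit in the window ranked 2512 to 5000, just below the IDR set, beside 6.66% of all genes. In this rank class were 16% of the cytosolic list, 18.6% of the respiratory list and 13.6% of the factors. Of these 19, 15 were of the large subunit, out of 41 (36.6%), and 4 of the small subunit, out of 29 (13.8%), and this difference was not tested. Their signal values ran from 15.8 to 22.6, and replicate 2 had a summit in each of the 19 windows, at ranks from 2485 to 5077. The pooled list was called on both replicates together, so a replicate 2 summit in these windows is not independent of the pooled rank. Replicate 1 had a summit in 0 of the 19 windows, beside 14.9% of the 1331 genes in this rank class.

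**Figure D1:**
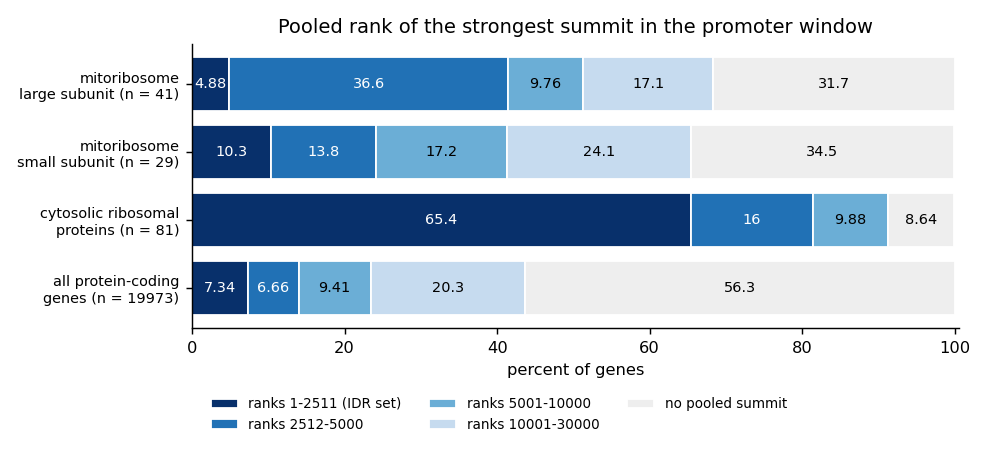
Horizontal bars give the percent of genes (x axis) by the pooled rank of the strongest summit in the promoter window, for both mitoribosomal subunits, cytosolic ribosomal protein genes and all protein-coding genes. The large subunit has 36.6% of its genes in ranks 2512 to 5000, against 6.66% of all genes. In the IDR ranks it has 2 of 41 genes (4.88%, Wilson interval 1.35 to 16.1). This interval includes the 7.34% of all genes.

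The 5 unbound members with the highest pooled signal came close to the limit of 23.8. They were mrpl-37 at 22.6 (rank 2753), mrpl-15 at 22.4 (rank 2783), mrpl-49 at 22.3 (rank 2801), mrpl-9 at 21.6 (rank 2936) and mrps-28 at 21.4 (rank 2988). The corresponding values in replicate 2 were 22.4, 22.6, 22.7, 21.2 and 20.5. mrpl-15 and mrpl-9 have bacterial counterparts and mrpl-37 and mrpl-49 are proteins of mitochondrial ribosomes. Just inside the limit stood mrpl-36 at 25.5. The members mrpl-15 and mrpl-49 were among the 2511 strongest regions of replicate 2 alone, at ranks 2507 and 2485, so the count near the limit turns on small differences in rank.

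Over the 47 members with one, the strongest summit had a median position of -189 bp (quartiles -396 and -134), and 28 of 47 (59.6%) were within 250 bp of a start. Over all 8738 protein-coding genes with a pooled summit the median was -259 bp (quartiles -543 and -86), and 48% were within 250 bp. For the 74 cytosolic ribosomal protein genes with a pooled summit the median was -302 bp (quartiles -368 and -246), and 18 (24.3%) were within 250 bp. The large and small subunits had medians of -189 bp over 28 genes and -191 bp over 19.

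**Figure D2:**
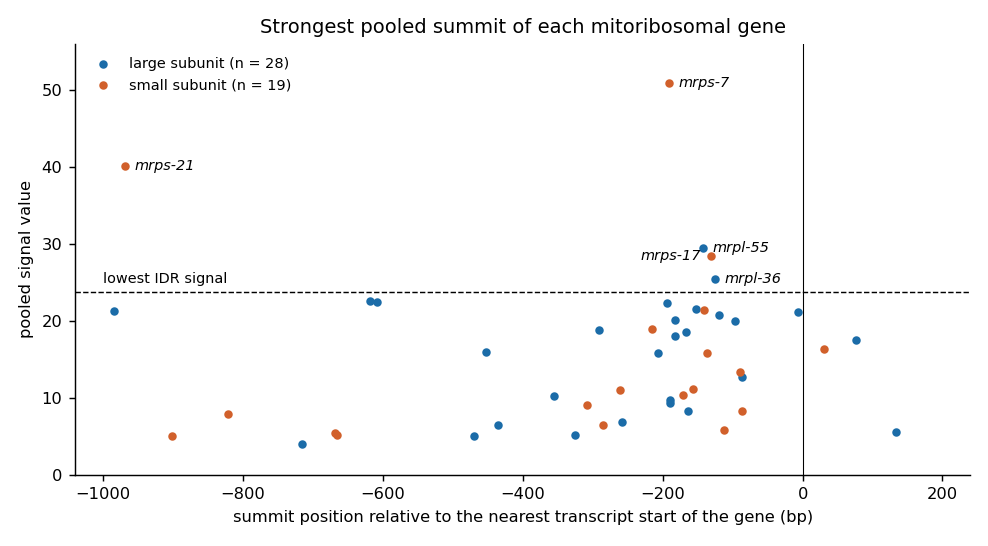
Each point is the strongest pooled summit in the window of a mitoribosomal gene, with its position relative to the nearest transcript start of that gene (x axis, bp) and its pooled signal value (y axis). The 5 named genes lie above the dashed line at 23.8, the lowest signal of the IDR set, 4 of them between -191 and -125 bp and mrps-21 at -969 bp, and many large-subunit points lie just under the line.

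The remaining 23 members, 13 of the large and 10 of the small subunit, had no pooled summit in the window. They were mrpl-4, mrpl-10, mrpl-11, mrpl-13, mrpl-19, mrpl-21, mrpl-22, mrpl-24, mrpl-30, mrpl-41, mrpl-42, mrpl-44, mrpl-50, mrps-2, mrps-5, mrps-9, mrps-11, mrps-14, mrps-18.C, mrps-27, mrps-30, mrps-33 and mrps-35. Of the 42 unbound members with a pooled summit, those not described by value were mrpl-2, mrpl-12, mrpl-16, mrpl-17, mrpl-18, mrpl-38, mrpl-39, mrpl-45, mrpl-46, mrpl-47, mrps-10, mrps-15, mrps-16, mrps-18A, mrps-18B, mrps-18C, mrps-22, mrps-25, mrps-26, mrps-31 and mrps-34.

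The presence of a pooled summit went with the arrangement of neighbouring genes, an arrangement examined after the values had been seen. For 27 of the 70 members (38.6%) the nearest non-overlapping protein-coding gene upstream was on the same strand and ended within 500 bp, beside 18.1% of all protein-coding genes. A pooled summit lay in the window of 10 of these 27 (37.0%, 21.5 to 55.8) and of 37 of the other 43 (86.0%, 72.7 to 93.4). Over all protein-coding genes the shares were 38.9% of 3612 and 44.8% of 16361. The interval of the other 43 members lay above 44.8%, and that of the 27 members behind a same-strand neighbour included 38.9%. These differences were not tested. Cytosolic ribosomal protein genes showed a contrast of the same direction, with 4 of 9 (44.4%) behind a neighbour and 70 of the other 72 (97.2%). The annotation does not say which of these neighbours form operons. The other genes include those whose nearest upstream gene lay on the opposite strand within 1000 bp, so that 1 summit can fall in both windows. Such genes made up 26 of the 70 members (37.1%), beside 17.5% of all protein-coding genes. Pooled summits were not counted separately for them.

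**Figure D3:**
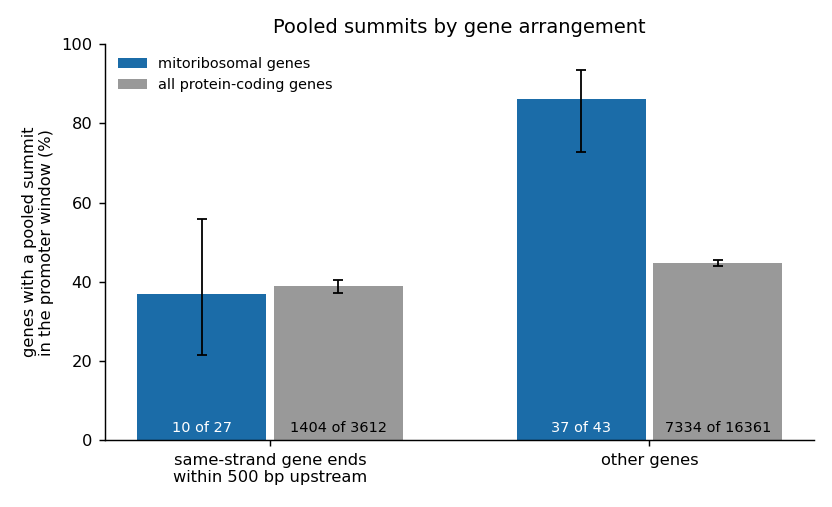
Bars give the percent of genes with a pooled summit in the promoter window (y axis), for genes whose same-strand upstream neighbour ends within 500 bp and for other genes, in the mitoribosomal list and in all protein-coding genes. Error bars are 95% Wilson intervals over genes. Among mitoribosomal genes 10 of 27 behind a neighbour and 37 of 43 others had a summit, and the 2 grey bars stand at 38.9% and 44.8%. Cytosolic ribosomal protein genes, not drawn, had 44.4% and 97.2%.

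Runs of such neighbours were then traced upstream to their first gene. An IDR summit lay in the window of the first gene for 13 of the 70 members (18.6%), counting members that start their own run, beside 8.91% of all genes. Among the 27 members behind a same-strand neighbour the count was 9 (33.3%), beside 12.6% of such genes in general. The share was 44.4% for the 9 such cytosolic ribosomal protein genes and 38.1% for the 21 such respiratory genes. The 9 members were mrps-21 and 8 members without an IDR summit of their own. Their gaps to the upstream neighbour ran from 93 bp at mrpl-48 to 460 bp at mrps-12, with 410 bp at mrpl-32 and 373 bp at mrpl-54. mrpl-32 followed rpn-3, a proteasome subunit, whose peak had a signal of 73.2 (rank 156), with 3.22 in replicate 1 and 70.7 in replicate 2. Its summit, at -209 bp from rpn-3, was also at -235 bp from hsp-110. mrpl-54 followed clsp-1, whose peak had a signal of 63.0 (rank 280), with 63.6 in replicate 2 and no overlap in replicate 1. That summit also lay at -5 bp from eef-2, the cytosolic translation elongation factor.

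In the other runs the peaks were weaker. mrps-12, which encodes the counterpart of a bacterial decoding-centre protein, followed num-1, whose peak had a signal of 41.4 (rank 817) and 4.11 in replicate 1. Its summit was at -817 bp from num-1 and 9086 bp from mrps-12. mrpl-48 followed vps-37, a subunit of the ESCRT-I complex, at 36.5 (rank 1093) and 2.44 in replicate 1. mrpl-23 followed fars-1, a phenylalanyl-tRNA synthetase subunit, at 35.9 (rank 1141) and 5.69 in replicate 1. mrps-2 and mrpl-4 are neighbours that both followed natc-1, at 30.1 (rank 1654) and 2.39 in replicate 1. The summit at natc-1, at -112 bp, was also at -127 bp from dnj-22. mrpl-41 followed misc-1, a mitochondrial solute carrier, at 24.3 (rank 2420) and 2.53 in replicate 1. The peaks at fars-1 and misc-1 were nearer to the starts of rbm-5 and B0432.10. Replicate 1 overlapped 7 of the 8 peaks at these 9 members, beside 30.7% of all IDR peaks, and its summit lay inside 5 of the 8, beside 26.7%. The peaks at vps-37 and natc-1 were overlapped by regions whose summits lay outside them. Over the 7 IDR peaks nearest to a member's own start, replicate 1 overlapped 2. These counts were made after the values had been seen and were not tested against each other.

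Within 5 kb of the gene body, 25 of the 70 members had an IDR summit (35.7%, 25.5 to 47.4), beside 24.1% of all genes. This held 17 of 41 large-subunit genes (41.5%) and 8 of 29 small-subunit genes (27.6%). Within 2 kb the count was 12 of the 70, a larger share than the 14.7% of all genes. The 20 members with such a summit but none in the promoter window had 21 peaks near them, with signal values from 24.2 to 73.2 and a median of 36.5. Of the 21 peaks, 13 lay in the promoter window of another protein-coding gene, 3 had the member's own start as the nearest, and replicate 1 overlapped 11.

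The 3 peaks nearest to a member's own start were at mrpl-53, mrpl-51 and mrpl-20. At mrpl-53 the signal was 46.7 (rank 597) with 45.5 in replicate 2 and no overlap in replicate 1, and the summit was 3591 bp downstream of the start, inside nhr-19. At mrpl-51 it was 44.4 (rank 685) with 3.29 in replicate 1 and 44.2 in replicate 2, 1336 bp downstream of the start and 506 bp beyond the gene. At mrpl-20 it was 33.8 (rank 1323) with 2.20 in replicate 1 and 31.9 in replicate 2, at -2809 bp. Of these 3 sites, mrpl-51 and mrpl-20 had a region in both replicates. The one peak inside a member gene was in mrpl-44, with a signal of 52.7 (rank 442) and 49.2 in replicate 2, at 4867 bp from its start, and a second one of 24.2 (rank 2457) lay 973 bp beyond that gene. Neither was overlapped by replicate 1.

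Most other nearby peaks belonged by position to neighbours. mrps-28 had a peak of 41.3 (rank 824) at -1017 bp, just outside the window, with 6.35 in replicate 1 (rank 180). mrpl-40 had one of 32.9 (rank 1390) at -1077 bp, at -98 bp from attf-3, with no overlap in replicate 1. mrpl-28 had one of 39.7 (rank 914) at -3391 bp with 7 in replicate 1 (rank 117), nearest to the start of etr-1, an RNA-binding protein of muscle. mrpl-35 had one of 35.5 (rank 1178) that lay at -300 bp from lias-1, a lipoic acid synthase of mitochondria, with 4.69 in replicate 1. The others were peaks near mrps-6 with 55.8 near egg-5, mrpl-21 with 55.7, mrpl-24 with 40.5 near zipt-11, mrps-23 with 36.3 near prp-40, mrpl-34 with 35.7 near C25A1.15 and mrps-27 with 33.3 near uev-1. No IDR summit lay within 5 kb of the other 45 members.

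Set beside other gene lists, the mitochondrial ribosome had a smaller share of bound genes than the cytosolic one. Of 81 cytosolic ribosomal protein genes 53 were bound (65.4%, 54.6 to 74.9), an interval that does not overlap that of the mitochondrial list. The 3 with the highest signal were rpl-25.2 at 66.5, rpl-3 at 62.1 and rps-19 at 61.0. Of 70 genes of the respiratory chain and ATP synthase 17 were bound (24.3%, 15.8 to 35.5), led by asb-2 at 48.6, cox-5A at 48.5 and ndub-8 at 47.2. Of 22 genes listed as factors of mitochondrial gene expression, dap-3 among them, 2 were bound (9.09%, 2.53 to 27.8). They were aars-1 at 35.9 and vars-1 at 35.7, both aminoacyl-tRNA synthetases. Among all protein-coding genes 7.34% were bound. The summit lay in another gene's window for 36 of the 53 cytosolic and 14 of the 17 respiratory genes, beside 40% of all bound genes. Replicate 1 overlapped the peaks of 12 of the 53 and 7 of the 17, beside 29.3%. It overlapped none of the 3 named cytosolic peaks and all 3 named respiratory ones. The lists were not tested against each other, and genes are not replicates.

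**Figure D4:**
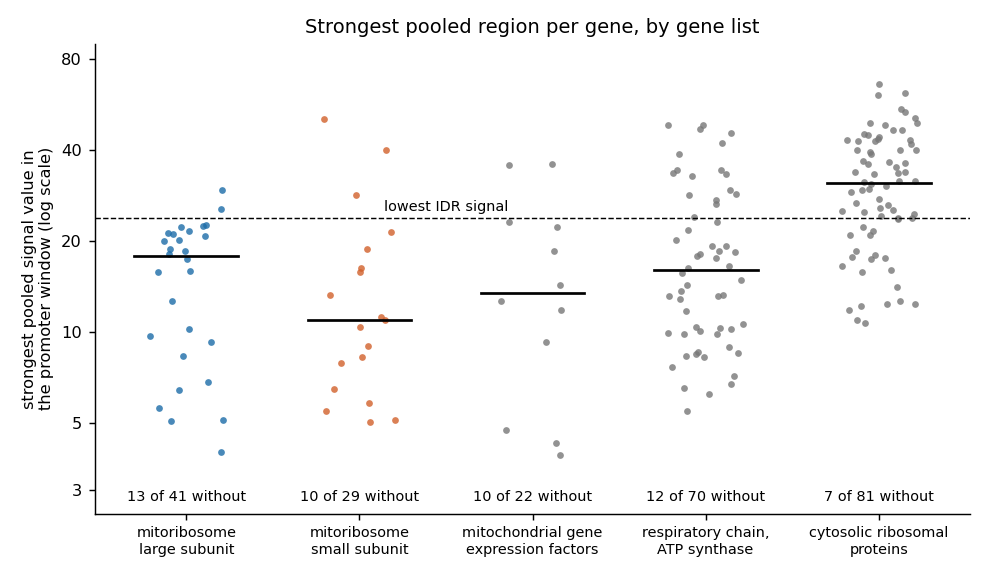
Each point is the strongest pooled signal value in the promoter window of a gene (y axis, log scale), by gene list, with black bars at the median and the number of genes without a pooled summit below. The medians are 17.8 for the large and 11.0 for the small mitoribosomal subunit and 31.2 for cytosolic ribosomal proteins, and the dashed line marks 23.8, the lowest IDR signal.

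The size of these shares depended on the replicate used, while cytosolic genes had the largest count, respiratory genes the next and mitochondrial ribosomal protein genes the smallest of these 3 lists in each setting below. In the 2511 strongest regions of replicate 1 alone the cytosolic list had 12 of 81 bound and the respiratory list 6 of 70, against 2 of 70 for the mitochondrial ribosome and 5.10% of all genes. In those of replicate 2 alone the counts were 53, 18 and 7. The mitochondrial gene expression factors had 2 of 22 in each replicate alone. Assigning every summit to just its nearest start gave 31 of 81, 11 of 70 and 7 of 70, beside 9.63% of all genes. A summit in replicate 1's whole list lay in the windows of 17 cytosolic genes (21.0%), 11 respiratory genes (15.7%) and 2 mitochondrial ribosomal protein genes (2.86%, 0.787 to 9.83).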

How the data were processed

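UNC-55 ChIP-seq peak lists of 2 biological replicates were analysed in ce11 coordinates. Per the notes deposited beside the files, regions came from the alignments of replicate 1, of replicate 2 and of both pooled, and the IDR set was derived from these 3 lists. The sources used here give neither the peak caller nor the aligner. The signal value, the −log10 q-value and the summit are the authors' as deposited. The −log10 q-value held 1 value across the IDR set and was not used for ranking.

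Transcript starts came from Ensembl release 115 (WBcel235, the ce11 assembly) and sequences from the RefSeq genome of that build. Positions are 1-based. Overlap means at least 1 bp. Counts, Wilson intervals and motif matches were computed with Python 3.11.15, pandas 2.3.3 and scipy 1.17.1, and the window search was checked on planted summits. Lists of other genes were taken by name (22 of 24 listed mitochondrial factors were found). Promoters were cut from the genome. Members, lists and motifs were chosen with earlier results of these data known. Named genes were every bound member, members with a replicate 1 summit, members with an IDR summit within 5 kb, the 5 strongest unbound members and the 3 strongest bound genes of each other list. Genes that lead a same-strand run were named after their values were seen. The control library and the ce10 lists were not analysed here.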

Additional observations from a re-analysis of the deposited data

How the results depend on the processing

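Counts of bound members moved with the definition of bound. Of the 70 members, 8 were bound when the window reached 2000 bp before and 500 bp after a start (all genes: 10.3%). With any overlap of the peak and the window 8 were bound (all genes: 7.99%). Among the 1256 strongest IDR peaks the count was 2 (all genes: 3.57%). IDR peaks overlapped by replicate 1 gave 1 (all genes: 2.15%). The first gene of a same-strand run, chosen after seeing the data, gave 13, or 18.6% (all genes: 8.91%). Without one replicate each the range was 2 to 7. In the same order the large subunit had 4, 4, 0, 0 and 8 bound, 5 with nearest starts only and 0 to 4 without one replicate each. The small subunit had 1 among peaks overlapped by replicate 1 and 5 with the first gene of a run, and 2 to 3 without one replicate each.

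Without one replicate each, cytosolic ribosomal protein genes ranged from 12 to 53 and respiratory genes from 6 to 18. With nearest starts only these lists had 31 and 11 bound and mitochondrial gene expression factors 1. Members with an IDR summit within 2 kb of the gene numbered 12 of the 70 (all genes: 14.7%). Within 5 kb, peaks overlapped by replicate 1 also gave 12 (all genes: 8.27%). Any overlap in place of the summit gave 4 of the 70 members for replicate 1 (all genes: 8.01%). The 3577 strongest regions of replicate 2 gave 17 of the 70 members, beside 10.4% of all genes. Replicate 1 overlapped the peaks of 0 of the 4 members bound with the narrower window (all bound genes: 28.5%). With the wider window it overlapped those of 3 of the 8 (all bound genes: 30.6%). The summit lay in another gene's window for 6 of these 8 (all bound genes: 52.2%). GAGAGA was in 0 of the 2 member peaks among the 1256 strongest, and ACGCAG in 1 of them, and in 1 of 5 within 50 bp of the summit. Of 60 recomputed values in all, 29 stayed within 1.5 times the reported count or, for the percentile, within 1 SD. No paired analysis was possible because the replicates form 1 group. Depth is unknown, so no count could be read as absence of binding.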

Other observations

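mrps-5, whose knockdown is known to lengthen the life of C. elegans, had no IDR summit within 5 kb and no pooled summit in its window. It lay 103 bp behind sel-1 on the same strand. This gene was chosen after its values were seen.

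The 70 members were spread unevenly over the chromosomes. Chromosome III held 22 (31.4%, beside 13.2% of all protein-coding genes) and X held 0 (beside 13.7%). Bound members were 2 of 22 on III and 3 of 11 on IV, where 9.77% and 6.37% of all protein-coding genes were bound. On I, II and V they were 0 of 15, 0 of 12 and 0 of 10, beside 10.2%, 6.84% and 4.51%. One pooled region served both mrpl-1 and mrps-24, neighbouring genes of opposite strands on chromosome IV, with a signal of 15.8 at rank 4658.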
